A study of Mus musculus with 10 samples.

Results

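Wnt ligands, their receptors and their antagonists were followed in embryonic mouse cerebellum with and without the histone methyltransferase Ezh2. The members are 52 genes of the pathway, taken by symbol from a deposited list of 22552 genes, and all 52 were found. They comprise 18 Wnt ligands, 10 Frizzled receptors, the coreceptors Lrp5 and Lrp6, 10 antagonists, 5 target and feedback genes, 4 R-spondins and 3 Lgr receptors. No measured value entered their choice, although results of these data were known when the set was named.

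The RNA came from cerebella dissected from E13.5 embryos of mixed C57BL/6 and 129 background, with 4 wild type libraries and 4 Ezh2 deletion libraries. In the deletion group a floxed Ezh2 allele was crossed to Pax7-Cre, so that recombination is limited to cells with a history of Pax7 expression, and a Rosa-YFP allele bred alongside it helped the dissection. The labels do not say whether the wild type embryos carried Cre or the YFP allele, nor whether the libraries of a group came from separate embryos. The p-values therefore rest on the spread of these libraries, some of which can be technical. Chromatin profiles of H3K27me3 from the same series were not used here.

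A Wnt ligand binds a Frizzled receptor and Lrp5 or Lrp6 at the cell surface, which keeps beta-catenin from being degraded, so that it enters the nucleus and acts with Lef1, Tcf7 and their relatives. Several genes switched on in this way, such as Axin2, Nkd1 and Apcdd1, restrain the pathway in turn, while R-spondins strengthen it through Lgr receptors. In the embryo Wnt signals from the dorsal midline and from the border of midbrain and hindbrain take part in forming the midbrain and cerebellum. Ezh2 is the catalytic subunit of Polycomb repressive complex 2, which places the repressive mark H3K27me3, often at promoters rich in CG dinucleotides.

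Some facts of the whole set of libraries bear on the values below. Levels are RPKM, read numbers scaled by the length of the gene and by the mapped reads of the library, so levels of different genes can be compared. The unit is the one the deposited table is named for; whether single reads or fragments were counted is not stated. Total depth is unknown; the spacing of the lowest values gave relative depths of 1 to 1.35 in wild type and 1.25 to 2.11 in Ezh2 deletion, the deepest being Ezh2 deletion 2. Ezh2 itself was at 73.6, 84.7, 78.2 and 78.2 RPKM across wild type 1 to 4, against 53.8, 48.7, 51.1 and 64.4 RPKM in Ezh2 deletion 1 to 4. Its log2 difference was -0.53 (limma adjusted p = 0.0074, SE 0.084). All 12 cerebellar markers were present in each genotype, with a summed level of 1924 to 2150 RPKM in wild type against 1918 to 2293 RPKM in Ezh2 deletion. Most of each sum was Tubb3, with means of 1381 RPKM (wild type) and 1423 RPKM (deletion). Similar sums therefore do not show that cerebellar cell types were matched. Log2 differences were positive for 7 of these markers and negative for 5, and only Skor2 passed the test, as lower. Mean Ptf1a went from 4.35 to 2.94 RPKM and mean Lhx1 from 81.6 to 63.5 RPKM, while mean En1 went from 42.9 to 59.2 RPKM. The Y-linked gene Ddx3y was at 8.31 to 9.43 RPKM in wild type against 7.92 RPKM in Ezh2 deletion 4, but did not exceed 0.0219 RPKM in Ezh2 deletion 1, 2 and 3, so sex differs between the groups. Ezh2 deletion 2 stood apart in markers of neighbouring tissue. Its 9 choroid plexus and roof plate markers summed to 211 RPKM against 29.1 to 54.5 RPKM in the other 7 libraries, and its 9 meningeal and mesenchymal markers to 22 RPKM against 3.08 to 7.93 RPKM. In whole tissue, more cells of a type and more RNA per cell cannot be told apart.

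Windows at listed starts of members that moved are shown first. Of the 52 members, 34 had at least 1 window in RefSeq's promoter table (build GRCm38.p6), which spans 250 bases before to 50 after a start. The windows below belong to Lef1, Tcf7 and Fzd1, which were higher in Ezh2 deletion, and to Axin2, the usual readout gene of the pathway. For a gene with several starts the most upstream one listed is given. No window was matched for Lrp5, Sfrp1 and Lgr5, and Apcdd1 was not searched. Capitals mark CG dinucleotides, the letters that define CpG islands, and each line runs 5′ to 3′ on the strand of its gene.
Lef1, chr3:131110047-131110346, plus strand: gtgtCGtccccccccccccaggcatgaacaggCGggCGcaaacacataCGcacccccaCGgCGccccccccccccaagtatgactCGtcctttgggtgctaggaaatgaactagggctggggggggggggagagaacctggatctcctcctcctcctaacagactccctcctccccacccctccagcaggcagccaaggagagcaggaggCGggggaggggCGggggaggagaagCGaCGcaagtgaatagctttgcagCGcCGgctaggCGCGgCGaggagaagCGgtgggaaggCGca
Tcf7, chr11:52282965-52283264, minus strand: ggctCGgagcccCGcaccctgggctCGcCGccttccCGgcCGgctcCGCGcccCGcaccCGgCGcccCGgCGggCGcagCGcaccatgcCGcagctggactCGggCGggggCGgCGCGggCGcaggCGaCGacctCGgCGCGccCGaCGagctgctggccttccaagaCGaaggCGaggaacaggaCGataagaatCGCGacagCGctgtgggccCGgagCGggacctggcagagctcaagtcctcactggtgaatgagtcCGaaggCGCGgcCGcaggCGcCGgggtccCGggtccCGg
Fzd1, chr5:4758167-4758466, minus strand: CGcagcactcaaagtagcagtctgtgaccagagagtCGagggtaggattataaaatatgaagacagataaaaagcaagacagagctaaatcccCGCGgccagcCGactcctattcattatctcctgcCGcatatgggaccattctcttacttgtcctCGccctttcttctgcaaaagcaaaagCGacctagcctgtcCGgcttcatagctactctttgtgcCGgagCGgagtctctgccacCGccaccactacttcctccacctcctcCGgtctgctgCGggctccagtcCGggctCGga
Axin2, chr11:108920099-108920398, plus strand: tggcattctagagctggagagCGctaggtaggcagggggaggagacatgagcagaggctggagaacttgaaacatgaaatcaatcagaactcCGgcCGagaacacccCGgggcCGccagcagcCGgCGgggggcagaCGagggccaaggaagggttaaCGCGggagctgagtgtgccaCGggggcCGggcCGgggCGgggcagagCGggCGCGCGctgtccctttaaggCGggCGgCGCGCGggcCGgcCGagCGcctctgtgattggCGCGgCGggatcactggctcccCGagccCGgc

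These windows held 18 CG dinucleotides for Lef1, 45 for Tcf7, 16 for Fzd1 and 31 for Axin2. In the Tcf7 window an open reading frame runs from an atg to the end of the window. Much of that window, with its CG dinucleotides, may thus be coding sequence. The 41 windows of members had a median of 24 CG dinucleotides. All 32851 windows of full length outside chromosome 18, non-coding genes included, had a median of 7. The median GC content was 66.7% in the members' windows and 52.7% in all windows. The core of the sites bound by Tcf and Lef proteins was searched as CTTTGAT or CTTTGTT and their reverse complements ATCAAAG and AACAAAG. It occurred in 5 of the 41 windows (12.2%), namely 1 window each of Fzd7, Wnt5b, Wnt11, Wnt3 and Dkk1, and in 9.33% of all windows. None of the 4 windows printed above held these letters. A match or its absence in so short a window is a description of letters and says nothing of binding.

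Levels in wild type cerebellum covered a wide range in each role, as the plot of all members shows. Wnt7b was the most abundant ligand at 37.9 ± 3.76 RPKM (SD, n = 4) and made up 50.1% of the summed level of the 18 ligands. Wnt5a at 11.4 ± 0.964 RPKM and Wnt3 at 11.4 ± 0.658 RPKM followed, with overlapping libraries, and Wnt7a came next at 8.05 ± 0.463 RPKM. Among the receptors Fzd10 led at 58.2 ± 7.08 RPKM, before Fzd3 at 39.3 ± 3.17 RPKM and Fzd1 at 14.2 ± 1.24 RPKM. The most abundant antagonist was Apcdd1 at 63.8 ± 6.55 RPKM, the highest level of any member. Nkd1 at 40.9 ± 2.71 RPKM and Axin2 at 22.2 ± 1.31 RPKM led the target and feedback genes. Rspo1 was the most abundant R-spondin at 4.67 ± 0.879 RPKM, and Lgr4 the most abundant Lgr receptor at 7.16 ± 0.157 RPKM.

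**Figure D1:**
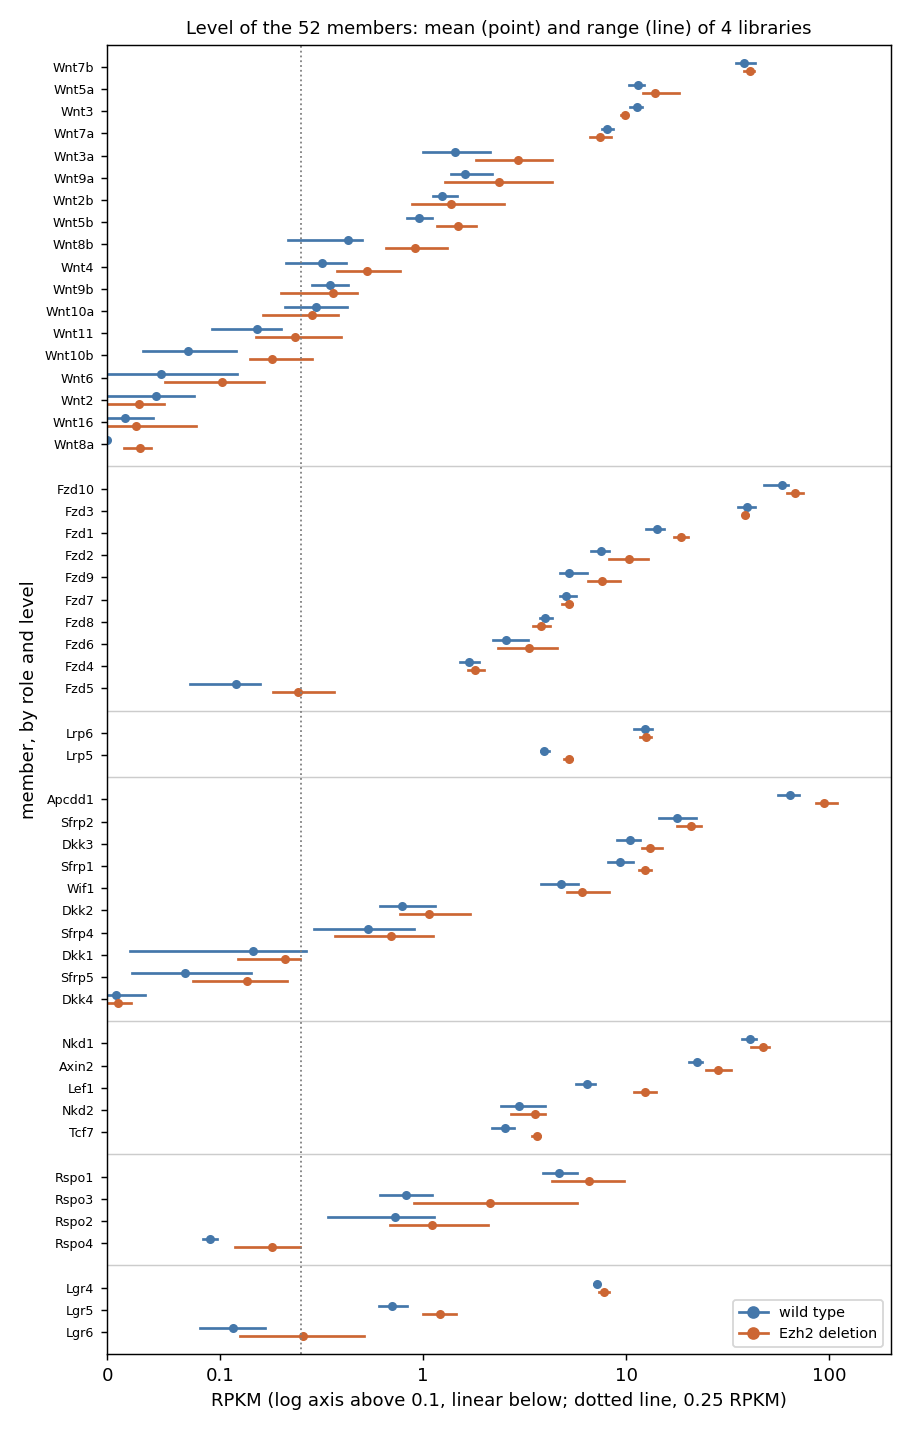
RPKM of the 52 members, ordered by role and then by mean level, on a log axis that is linear below 0.1 RPKM. Points are means and lines the range of 4 libraries in wild type and in Ezh2 deletion; the dotted line marks 0.25 RPKM, the mean level a gene needed to be tested. Apcdd1, Fzd10 and Wnt7b lead their roles in both genotypes, and the ranges of Lef1, Lrp5 and Tcf7 do not overlap.

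The comparison of Ezh2 deletion with wild type asked which members differed. Of the 40 members that averaged 0.25 RPKM or more across all 8 libraries, 7 were higher in Ezh2 deletion and 0 were lower (limma on log2(RPKM + 0.25), Benjamini-Hochberg adjusted over 14279 genes, adjusted p under 0.05). Over all genes tested 2.71% were higher and 0.742% lower. The 7 were Lef1, Tcf7, Apcdd1, Sfrp1, Fzd1, Lrp5 and Lgr5, and their levels rose by between 1.30-fold and 1.93-fold as ratios of mean RPKM. At an unadjusted p under 0.05 there were 17 higher members and 1 lower member, against 9.74% and 7.96% of all genes tested. The median log2 difference was 0.32 over the 40 members and -0.012 over all genes tested, and 35 of the 40 differences were positive, against 46.1% over all genes. All 40 also averaged at least 0.25 RPKM in wild type alone, so none was tested through its deletion level only. In 12 of the 40 all deletion libraries lay above all wild type libraries, and in 1 all lay below; over all genes tested these shares were 6.79% and 5.61%.

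**Figure D2:**
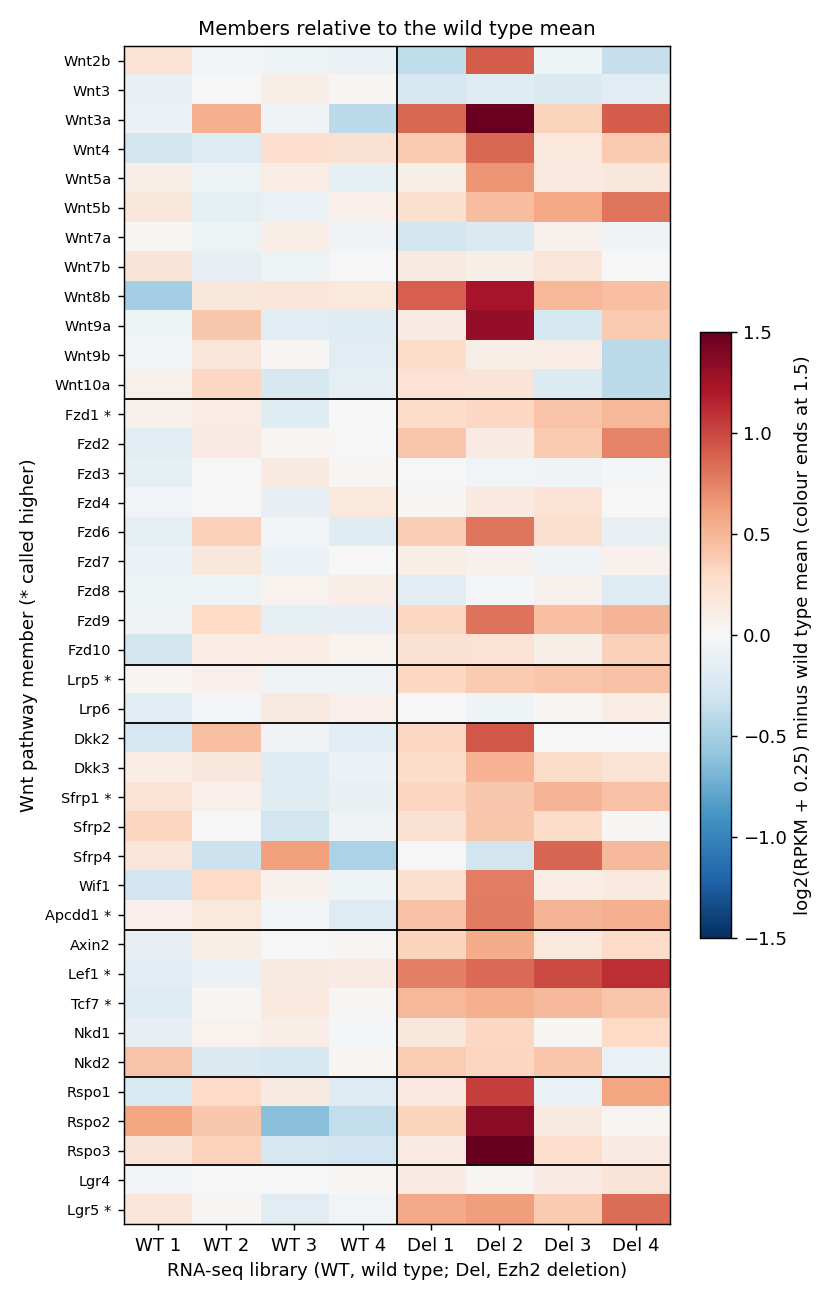
Colour gives log2(RPKM + 0.25) minus the wild type mean for the 40 tested members in each library, with lines between the roles and an asterisk at the 7 members called higher. Lef1, Tcf7 and Lgr5 are high in all 4 deletion libraries, while Rspo3, Rspo2 and Wnt9a are highest in Ezh2 deletion 2.

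Among nuclear effectors and target genes, Lef1 and Tcf7 rose. Lef1, which pairs with beta-catenin on DNA, was at 5.63, 5.99, 7.00 and 6.98 RPKM across wild type 1 to 4, against 10.97, 11.7, 12.8 and 14.0 RPKM in Ezh2 deletion 1 to 4. Each deletion library thus held more Lef1 than any wild type library, with no overlap. Mean levels were 6.401 ± 0.697 and 12.4 ± 1.34 RPKM (SD, n = 4), and the log2 difference was 0.92 (limma adjusted p = 0.00062, SE 0.097). That was the largest log2 difference of the tested members in this fit. As ratios of mean RPKM, Rspo3, Wnt8b and Wnt3a rose more (2.57, 2.13 and 2.03 against 1.93) but did not pass. Tcf7, a close relative of Lef1, was at 2.18, 2.56, 2.81 and 2.56 RPKM across wild type, against 3.66, 3.76, 3.62 and 3.44 RPKM in Ezh2 deletion. The groups were apart and the deletion libraries lay close together, with a log2 difference of 0.48 (limma adjusted p = 0.0212, SE 0.093). Lef1 passed the test in all 21 alternative settings, 1 of which holds a single deletion library, and Tcf7 in 12 of them. The settings that only changed the threshold reused the same fit, so a member called at 0.05 cannot fail at 0.1. With 1 library left out, the adjusted p of Tcf7 ran from 0.0282 to 0.0674. Tcf7 did not pass without wild type 2 or 4, nor without Ezh2 deletion 1, 2 or 3.

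The other target and feedback genes did not pass. Axin2, a scaffold of the complex that degrades beta-catenin, was at 20.4, 23.6, 22.3 and 22.5 RPKM across wild type, against 28.0, 32.7, 24.8 and 27.2 RPKM in Ezh2 deletion. Its groups did not overlap, and the log2 difference of 0.34 (SE 0.083) had a limma adjusted p = 0.0595. Nkd1, which binds Dishevelled and dampens the signal, was at 37.3, 42.3, 43.6 and 40.3 RPKM across wild type, against 45.9, 50.5, 41.3 and 50.5 RPKM in Ezh2 deletion. Ezh2 deletion 3 lay inside the wild type range, and the difference of 0.20 (SE 0.075) had a limma adjusted p = 0.203. Its relative Nkd2 averaged 2.96 RPKM in wild type against 3.56 RPKM in Ezh2 deletion, with overlapping libraries.

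Of the antagonists, Apcdd1 and Sfrp1 rose. Apcdd1, a membrane glycoprotein that binds ligand and coreceptor, was at 66.8, 70.7, 61.9 and 55.6 RPKM across wild type, against 86.1, 109, 90.3 and 92.6 RPKM in Ezh2 deletion. Every deletion library exceeded every wild type library, Ezh2 deletion 2 most. The log2 difference was 0.57 (limma adjusted p = 0.0078, SE 0.09), and it passed in 20 of 21 settings. Sfrp1, a secreted protein that resembles the ligand-binding part of Frizzled, was at 10.8, 9.70, 8.09 and 8.52 RPKM across wild type, against 11.6, 12.3, 13.2 and 12.6 RPKM in Ezh2 deletion. The groups were apart, though wild type 1 came within 1 RPKM of the lowest deletion library. Its log2 difference of 0.42 (limma adjusted p = 0.0346, SE 0.09) passed only without wild type 1 among the 8 fits that left out 1 library, where adjusted p ran from 0.0109 to 0.107.

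The remaining antagonists did not pass, and all those tested had a positive log2 difference. Dkk3, a divergent member of the Dickkopf family, averaged 10.4 RPKM in wild type against 13.0 RPKM in Ezh2 deletion with no overlap between groups (limma adjusted p = 0.12). Sfrp2 averaged 17.8 and 20.8 RPKM, Wif1, which binds Wnt proteins outside the cell, 4.78 and 6.06 RPKM, Dkk2 0.791 and 1.06 RPKM, and Sfrp4 0.535 and 0.698 RPKM. All of these overlapped between groups.

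Among the receptors, Fzd1 and the coreceptor Lrp5 rose. Fzd1 was at 14.8, 15.4, 12.5 and 14.2 RPKM across wild type, against 17.2, 17.6, 19.2 and 20.1 RPKM in Ezh2 deletion, again without overlap. Its log2 difference was 0.38 (limma adjusted p = 0.0271, SE 0.076). Lrp5 was at 4.01, 4.17, 3.79 and 3.79 RPKM across wild type, against 4.94, 5.25, 5.36 and 5.41 RPKM in Ezh2 deletion. The gap between the groups exceeded the range within either, and the log2 difference was 0.39 (limma adjusted p = 0.0163, SE 0.071). With 1 library left out, adjusted p ran from 0.0367 to 0.087 for Fzd1 and from 0.0253 to 0.0658 for Lrp5. Neither passed without wild type 3 or 4, nor without Ezh2 deletion 3, and Fzd1 did not pass without Ezh2 deletion 4.

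**Figure D3:**
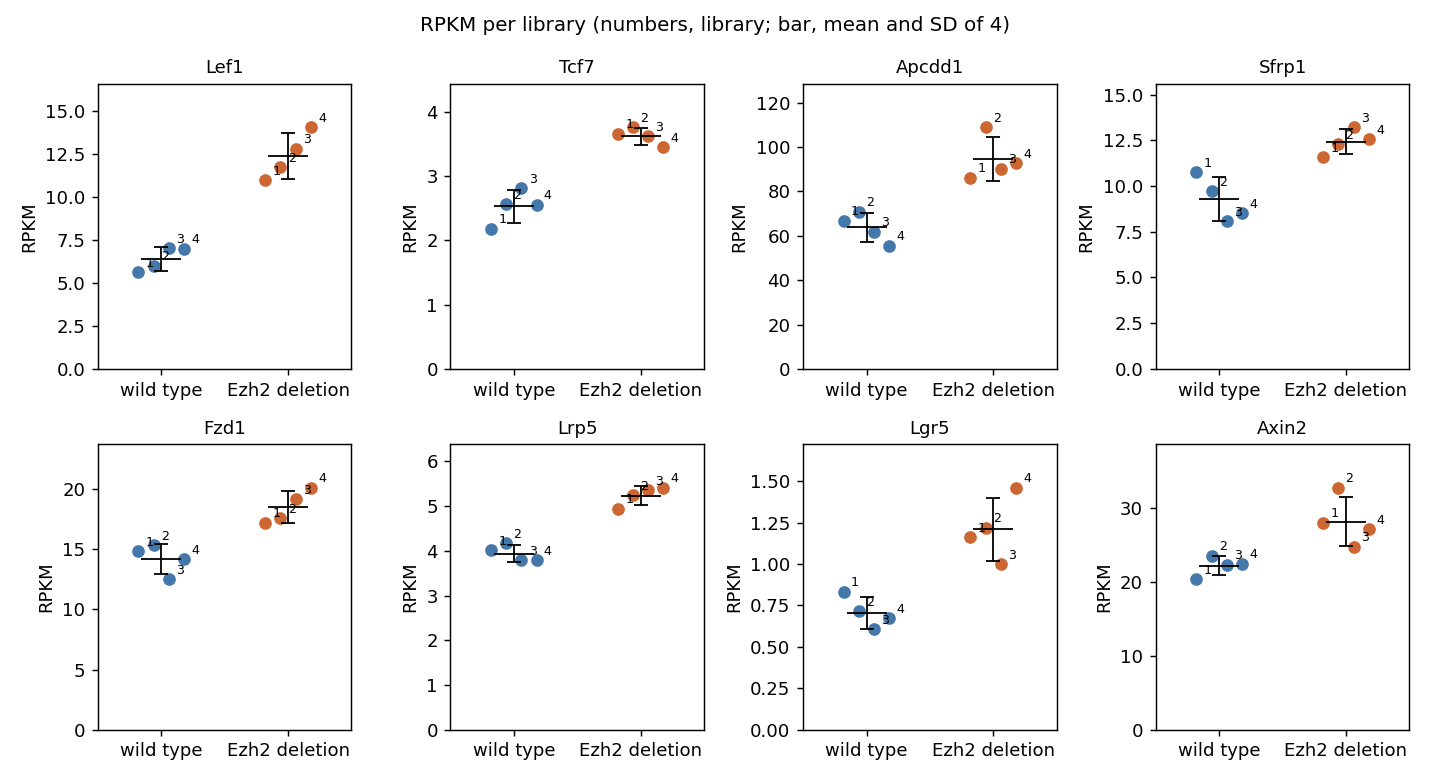
RPKM per library of the 7 members called higher and of Axin2, each axis starting at 0. Points are libraries with their number, and bars are mean and SD of 4; in all 8 panels the deletion libraries lie above the wild type libraries, from 10.97 against at most 7.00 RPKM for Lef1 to 24.8 against at most 23.6 RPKM for Axin2.

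The other receptors did not pass. Lrp6, the more abundant coreceptor, was at 10.9, 12.01, 13.46 and 13.0 RPKM across wild type, against 12.3, 11.7, 12.6 and 13.3 RPKM in Ezh2 deletion. The deletion libraries all lay inside the wild type range, with a log2 difference of 0.018 (limma adjusted p = 0.935, SE 0.074). Fzd10 was at 47.8, 62.7, 62.6 and 59.8 RPKM across wild type, against 67.8, 67.2, 61.7 and 74.0 RPKM in Ezh2 deletion. Ezh2 deletion 3 lay within the wild type range, and the difference of 0.22 (SE 0.091) had a limma adjusted p = 0.239. Fzd9 was at 5.02, 6.44, 4.72 and 4.77 RPKM across wild type, against 6.50, 9.31, 7.22 and 7.50 RPKM in Ezh2 deletion. Its groups were only just apart, and its difference of 0.52 (SE 0.127) was the largest of the Frizzled genes with a limma adjusted p = 0.0574.

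Fzd2 averaged 7.55 RPKM in wild type against 10.3 RPKM in Ezh2 deletion (limma adjusted p = 0.104), with Ezh2 deletion 2 inside the wild type range. Fzd3, known from axon guidance, was at 39.3 and 38.5 RPKM. Fzd7 was at 5.05 and 5.20 RPKM, Fzd8 at 4.00 and 3.79 RPKM, Fzd4 at 1.68 and 1.81 RPKM and Fzd6 at 2.56 and 3.32 RPKM, all overlapping.

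No ligand passed the test in either direction, among 12 tested. Wnt7b was at 43.2, 34.7, 35.8 and 37.8 RPKM across wild type, against 41.5, 40.0, 42.7 and 38.0 RPKM in Ezh2 deletion. Wild type 1 was the highest of all 8, and the log2 difference was 0.10 (limma adjusted p = 0.496, SE 0.071). Wnt3a, a ligand of the dorsal midline, was at 1.30, 2.13, 1.33 and 1.00 RPKM across wild type, against 2.73, 4.33, 1.83 and 2.83 RPKM in Ezh2 deletion. Only Ezh2 deletion 3 lay below the top wild type library. The log2 difference of Wnt3a, 0.89 (limma adjusted p = 0.103, SE 0.256), was the largest of the tested ligands, though Wnt8b rose more as a ratio of means.

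Wnt3, which Purkinje cells are known to express, was the only member with every deletion library below every wild type library. It was at 10.5, 11.4, 12.02 and 11.6 RPKM across wild type, against 9.46, 9.97, 9.75 and 10.1 RPKM in Ezh2 deletion. The gap was under 1 RPKM, and the log2 difference of -0.20 (SE 0.059) had a limma adjusted p = 0.0997. Skor2, a gene of the Purkinje cell lineage among the cerebellar markers, averaged 61.7 RPKM in wild type and passed the test as lower, at 32.1 RPKM, in Ezh2 deletion; its part in the level of Wnt3 was not tested. Wnt8b, from 0.426 to 0.910 mean RPKM, and Wnt5b, from 0.952 to 1.49 mean RPKM, lay above wild type in every deletion library and did not pass (limma adjusted p = 0.105 and 0.087). Both are low ligands here, under 1 RPKM on average in wild type.

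The other 7 tested ligands overlapped between groups. Wnt5a, the usual ligand of the beta-catenin-independent branch, averaged 11.4 RPKM in wild type against 13.9 RPKM in Ezh2 deletion, and Wnt7a 8.05 and 7.42 RPKM. Wnt9a was at 1.61 and 2.36 RPKM, Wnt2b at 1.23 and 1.36 RPKM and Wnt4 at 0.319 and 0.529 RPKM. Without Ezh2 deletion 2 the deletion mean of Wnt9a was 1.72 RPKM, with a log2 difference of 0.084 in place of 0.39. That of Wnt2b was 0.984 RPKM, and its log2 difference turned from 0.026 to -0.27. Wnt9b was at 0.347 and 0.361 RPKM and Wnt10a at 0.298 and 0.284 RPKM.

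Of 3 R-spondins and 2 Lgr receptors tested, Lgr5 passed. Lgr5, a target gene and stem cell marker in several tissues, rose from 0.833, 0.713, 0.605 and 0.672 RPKM in wild type to 1.16, 1.22, 0.998 and 1.46 RPKM in Ezh2 deletion. The groups did not overlap, and the log2 difference was 0.61 (limma adjusted p = 0.0407, SE 0.135). With 1 library left out it passed only without wild type 1, with adjusted p from 0.0417 to 0.12. Lgr4 was at 6.95, 7.22, 7.17 and 7.32 RPKM across wild type, against 7.81, 7.31, 7.79 and 8.24 RPKM in Ezh2 deletion. Ezh2 deletion 2 lay just inside the wild type range, and the difference of 0.12 (SE 0.06) had a limma adjusted p = 0.352.

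Rspo1 was at 3.89, 5.70, 5.11 and 4.00 RPKM across wild type, against 5.12, 9.70, 4.29 and 7.08 RPKM in Ezh2 deletion. Ezh2 deletion 1 and 3 lay inside the wild type range (limma adjusted p = 0.404). Rspo3 was at 0.958, 1.10, 0.639 and 0.616 RPKM across wild type, against 0.907, 5.70, 1.02 and 0.905 RPKM in Ezh2 deletion. A single library, Ezh2 deletion 2, set it apart, and its log2 difference of 0.75 (limma adjusted p = 0.515, SE 0.536) was the largest of the R-spondins. Without Ezh2 deletion 2 the deletion mean was 0.944 RPKM against 2.13 RPKM with it. Rspo2 averaged 0.724 RPKM in wild type against 1.11 RPKM in Ezh2 deletion, and 0.782 RPKM without Ezh2 deletion 2.

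Ezh2 deletion 2 held the highest value of the 8 libraries in 19 of the 40 tested members, and in 13.9% of all tested genes. Its median log2 difference from the wild type mean was 0.44 over the 40 members, against 0.24, 0.17 and 0.20 in Ezh2 deletion 1, 3 and 4. The choroid plexus gene Ttr was at 152 RPKM there, at 16.2 RPKM in Ezh2 deletion 1 and at no more than 4.995 RPKM in the other libraries, and Col1a1, a collagen of mesenchyme, at 3.57 RPKM against at most 0.608 RPKM. Endothelial markers summed to 73.9 RPKM and microglial ones to 28.4 RPKM in this library, against 56.7 to 68.1 and 13.8 to 21.1 RPKM in wild type. The part of these tissues in the members' levels was not tested. Without Ezh2 deletion 2 the members called higher were Fzd1, Fzd2, Lrp5, Apcdd1 and Lef1, and the median log2 difference of the 40 members was 0.17.

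**Figure D4:**
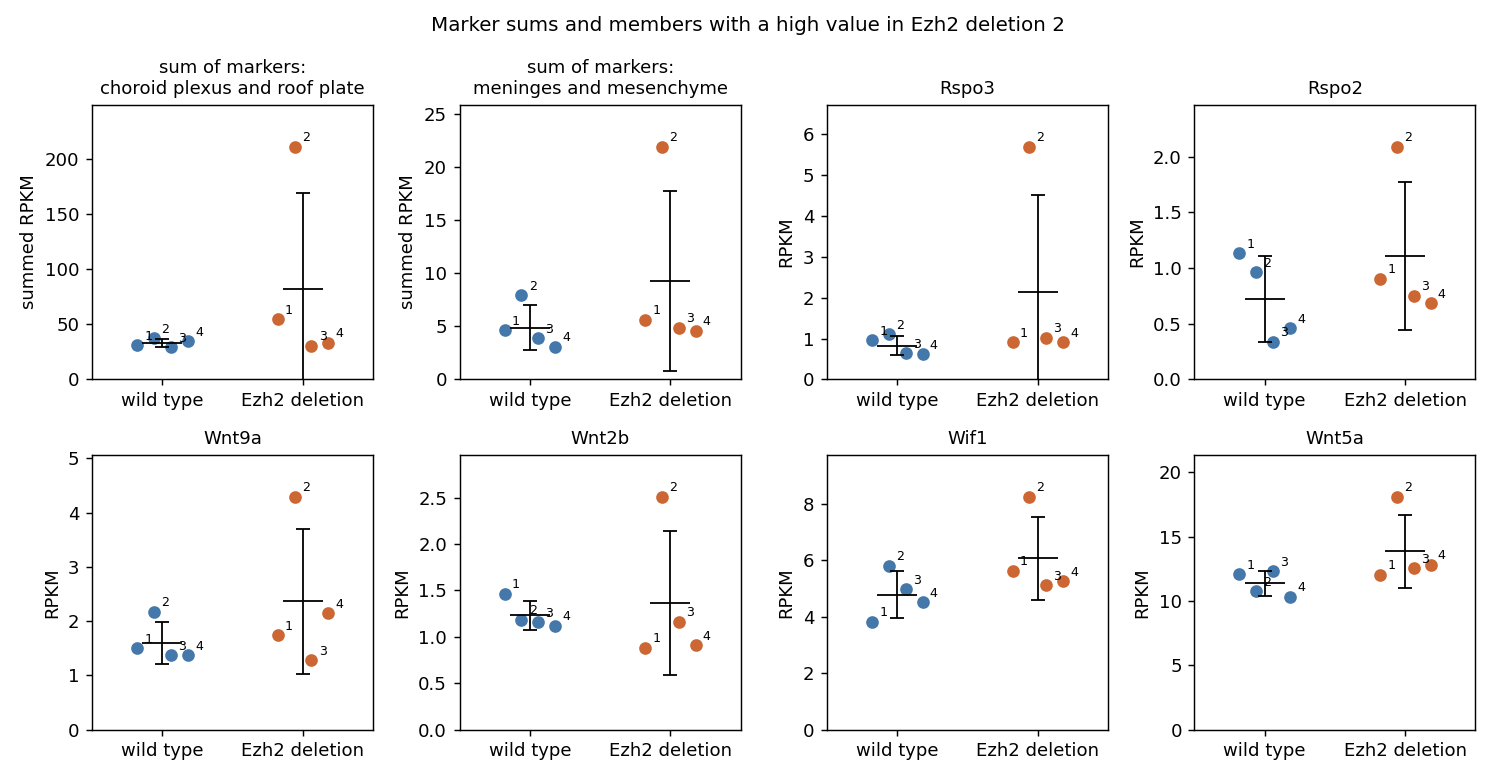
Summed RPKM of 9 choroid plexus and roof plate markers and of 9 meningeal and mesenchymal markers, and RPKM of 6 members, per library with mean and SD of 4. Ezh2 deletion 2 is the highest library in every panel, at 5.70 RPKM for Rspo3 and 211 RPKM for the choroid plexus and roof plate sum.

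Markers of the midbrain had a higher summed level in every deletion library. The 12 midbrain markers summed to 43.0 to 58.4 RPKM in wild type and to 65.9, 67.4, 77.3 and 102 RPKM in Ezh2 deletion 1 to 4, which is also the order of Lef1, Fzd1 and Lrp5 over these libraries but not that of Tcf7, Apcdd1, Sfrp1 or Lgr5. Lmx1a is listed both here and among the choroid plexus and roof plate markers. It is the largest single part of the wild type midbrain sum, averaging 25.97 RPKM, against 25.91 RPKM in Ezh2 deletion. Foxa1 was at 0 throughout wild type and averaged 0.361 RPKM in Ezh2 deletion. Otx2, which defines midbrain against hindbrain, was at 7.55, 6.90, 3.86 and 3.51 RPKM across wild type, against 4.15, 14.7, 15.3 and 21.1 RPKM in Ezh2 deletion. In Ezh2 deletion 1, where Otx2, Otx1 and Tal2 lay inside the wild type range, Lef1 was at 10.97 RPKM against at most 7.00 RPKM in wild type. The summed midbrain markers of that library, 65.9 RPKM, were above every wild type sum. How much of the differences midbrain tissue accounts for was not tested.

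Sex and genotype cannot be told apart over all libraries, since 3 of the 4 deletion libraries lack Y-linked RNA. The remaining one, Ezh2 deletion 4, also had the highest midbrain marker sum of all libraries, 102 RPKM. It held the most Ezh2 of the deletion libraries, 64.4 RPKM, a log2 difference of -0.29 from wild type. The part of either in its member levels was not tested. Ezh2 deletion 4 against the 4 wild type libraries is the only comparison among libraries with Y-linked RNA, and its spread comes from wild type alone: the lone deletion library is assumed to vary like wild type, so these p-values carry no replication of the deletion. In it Lef1 had a log2 difference of 1.11 (limma adjusted p = 0.0173), and Fzd2 one of 0.75 (limma adjusted p = 0.0385). The differences of Apcdd1 (0.54), Lrp5 (0.44), Sfrp1 (0.44), Fzd1 (0.50), Tcf7 (0.42) and Lgr5 (0.84) kept their sign and did not pass, with limma adjusted p from 0.0937 to 0.246. Positive differences numbered 29 of 40, against 48.3% of all genes tested.

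**Figure D5:**
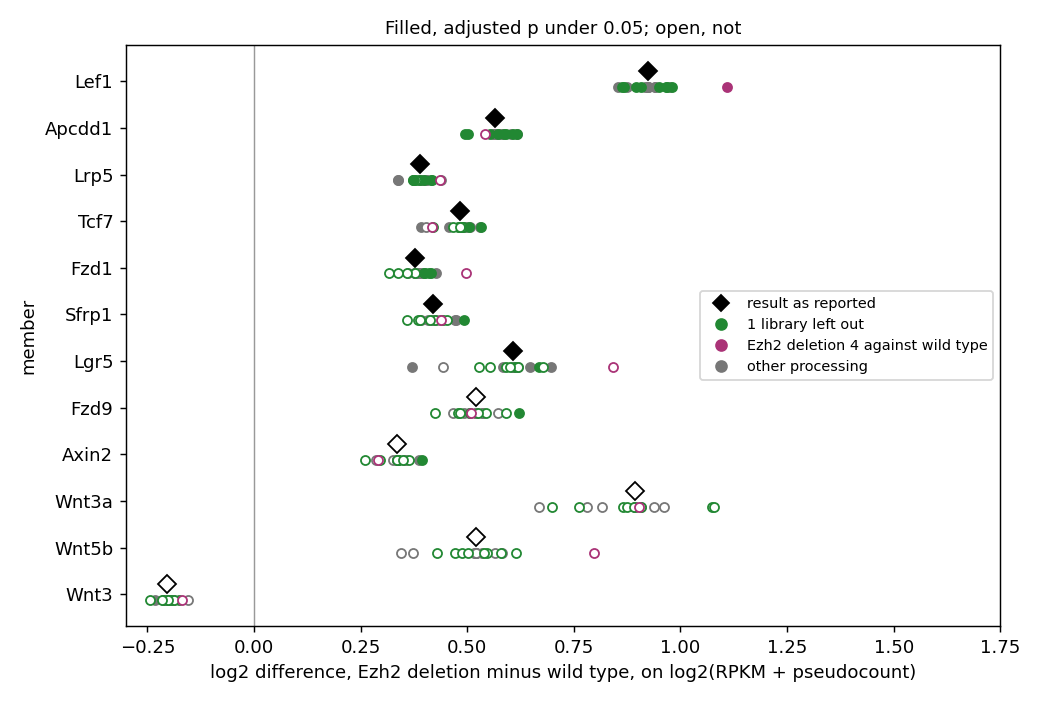
Log2 difference of 12 members as reported (diamond) and in up to 19 other fits (circles), filled where the adjusted p was under 0.05. All fits of Lef1 are filled, between 0.85 and 1.11, Apcdd1 misses only with Ezh2 deletion 4 against wild type, and Wnt5b passes in none of those drawn.

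The 12 members below 0.25 RPKM on average were left out of the counts above. In 4 of them, Wnt8a, Wnt10b, Fzd5 and Rspo4, each deletion library was above each wild type library, and in 0 below; of all 8273 genes under that level, 2.44% lay above in this way. Fitted without the level filter, none of the 12 passed, with limma adjusted p from 0.124 to 0.957. Wnt8a was listed at 0 throughout wild type, and its deletion libraries held 0.0393, 0.0146, 0.0246 and 0.0364 RPKM. Scaled by relative depth, these equal 2, 1, 1 and 2 times its smallest step. Fzd5 averaged 0.120 RPKM in wild type against 0.243 RPKM in Ezh2 deletion, Wnt10b 0.0718 and 0.180 RPKM and Rspo4 0.0910 and 0.181 RPKM. The other 8, Wnt2, Wnt6, Wnt11, Wnt16, Dkk1, Dkk4, Sfrp5 and Lgr6, had group means between 0.0083 and 0.256 RPKM with overlapping libraries. The deletion libraries are deeper as a group, which bears on whether so low a gene is listed above 0.

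A further 59 genes of the pathway, from secretion to the nucleus, were followed as a list. Of the 58 tested, 1 was higher and 2 were lower in Ezh2 deletion, against 2.71% and 0.742% of all genes tested. The median log2 difference was 0.047, against -0.012 over all genes tested. Positive differences made up 34 of the 58 (58.6%), against 46.1% over all genes. Ror2, a receptor tyrosine kinase for Wnt5a, was at 1.35, 1.45, 1.44 and 0.940 RPKM across wild type and rose to 2.06, 3.24, 2.12 and 2.37 RPKM (log2 difference 0.80, SE 0.167, limma adjusted p = 0.0315). Tle1, a Groucho corepressor that Tcf and Lef proteins recruit, was at 73.8, 76.9, 84.7 and 82.8 RPKM across wild type and fell to 59.5, 54.6, 58.9 and 55.3 RPKM (log2 difference -0.48, SE 0.057, limma adjusted p = 0.0014). Dact1, a Dishevelled-binding protein, was at 36.4, 37.1, 37.3 and 36.2 RPKM and fell to 29.7, 27.5, 26.4 and 20.9 RPKM (log2 difference -0.50, SE 0.093, limma adjusted p = 0.0182). None of these 3 overlapped between groups. With 1 library left out, the count of higher genes went to 0 without any 1 of the wild type libraries or without Ezh2 deletion 3 or 4, and reached 3 without Ezh2 deletion 1; that of lower genes went to 1 without wild type 2, 3 or 4 or Ezh2 deletion 3. The core components Ctnnb1 (368 and 378 RPKM in wild type and Ezh2 deletion), Gsk3b (76.2 and 70.7 RPKM) and Axin1 (19.1 and 19.2 RPKM) did not pass.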

How the data were processed

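PolyA RNA of dissected cerebella was sequenced by an Illumina protocol, per the labels' protocols. The authors deposited RPKM values as 1 table of genes by libraries. Cuffdiff, TopHat, Bowtie and SICER, without versions, and build mm9 appear in the submitters' processing notes. The annotation, the use of strand and the handling of multiply mapped reads were not stated in the labels, so genes that overlap or share reads are uncertain. A 0 can be a failed estimate.

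Because RPKM is a scaled unit, count models were left aside. The 14279 of 22552 genes averaging 0.25 RPKM or more were transformed to log2(RPKM + 0.25) and fitted in limma 3.58.1 under R 4.3.3 (two-sided moderated test, trend and robust options on, Benjamini-Hochberg over all genes tested, threshold 0.05). Fold changes on this scale understate the change of low genes. The fit was tested on simulated data. Ratios of means, marker sums and promoter letters were computed with pandas 2.3.3.

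The members, gene lists and tests were chosen with earlier results of these data known. Named with full values were members called in either direction and, in each role, the one with the highest mean and the one with the largest log2 difference; Wnt3 and Axin2 were added after their values were seen. Of the further 59 genes, 3 were matched through older names; called ones were named, and the core components were added later. Same-numbered libraries did not deviate together (correlations 0.0034 to 0.0867 over the 4 numbers), so no block was used. Alternatives covered the pseudocount, filter, scaling, variance model, weights, a block, each library left out, sex and the threshold. Those of the threshold reused the main fit, so a pass at 0.1 is certain for a member called at 0.05. The test results of single midbrain markers are not reported here.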

Additional observations from a re-analysis of the deposited data

Results flagged for a closer look

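In 6 of the 80 groups of 4 libraries examined (the 40 tested members in each genotype), 1 library lay far from the other 3, and chance marks about 1 in 20 such groups (5%). Ezh2 deletion 2 was that library in 4 of them, always on the high side. It held 5.70 RPKM of Rspo3, 2.09 RPKM of Rspo2, 18.1 RPKM of Wnt5a and 8.25 RPKM of Wif1. Wild type 2 was high for Wnt9a at 2.18 RPKM, and wild type 1 was low for Wnt8b at 0.217 RPKM.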

How the results depend on the processing

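Lef1 passed in all 21 alternative settings, the one with a single deletion library included, with log2 differences from 0.85 to 1.11, and Apcdd1 in 20 of 21 with differences from 0.50 to 0.62. The 7 members called higher became 4 with a replicate block, 2 in Ezh2 deletion 4 against wild type, 2 at an adjusted p under 0.01, and 2 to 7 with 1 library left out (3 without wild type 3, 2 without wild type 4, 4 without Ezh2 deletion 1, 3 without Ezh2 deletion 3 and 4 without Ezh2 deletion 4). The block called Wnt3a, Fzd9, Apcdd1 and Lef1, and not every library correlated best with its own number. The count of lower members went from 0 to 1, which was Wnt3, with library weights and at an adjusted p under 0.1. Of the further pathway genes, the 1 called higher became 2 with a pseudocount of 0.1 or without trend and robust settings. That count became 3 without a level filter or with median ratio scaling, and 5 with library weights. It was also 5 without erythroid and Y-linked genes and Xist, a setting that also scaled every library to the same summed RPKM. It became 0 with the block or at an adjusted p under 0.01, 9 at an adjusted p under 0.1, and 0 to 3 with 1 library left out. The 2 called lower became 1 at an adjusted p under 0.01 and 1 to 3 with 1 library left out. Ezh2 had a log2 difference of -0.29 in Ezh2 deletion 4 against wild type and did not pass (limma adjusted p = 0.146). Over all genes, leaving out 1 library gave as few as 218 higher and 40 lower calls (without wild type 4), against 387 and 106. Removing erythroid and Y-linked genes and Xist, together with scaling to the same summed RPKM, gave 476 higher and 55 lower calls. The causes were not tested. None of the 12 members under 0.25 RPKM passed without the level filter, and total depth is unknown.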

Other observations

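Of the 58 further pathway genes tested, 9 had every deletion library above every wild type library and 4 had every one below; over all genes tested these shares were 6.79% and 5.61%. Above and not passing were Ccnd1, Tcf7l2 (3.10 and 4.66 mean RPKM in wild type and Ezh2 deletion), Tle2 (1.46 and 2.51 RPKM), Celsr1 (8.18 and 11.4 RPKM), Ptk7 (17.5 and 20.8 RPKM), Vangl1 (1.49 and 2.05 RPKM), Prickle2 (14.0 and 16.4 RPKM) and Prickle3 (0.295 and 0.553 RPKM), with limma adjusted p from 0.0501 to 0.105. Ror2 was above and passed. Below were Tle1 and Dact1, which passed, and Csnk1a1 (180.4 and 168 RPKM) and Pygo1 (25.03 and 23.1 RPKM), which did not.

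Ccnd1, a D-type cyclin often listed as a Wnt target, was at 20.3, 22.3, 20.9 and 19.0 RPKM across wild type, against 30.9, 33.5, 53.1 and 66.3 RPKM in Ezh2 deletion. The groups were far apart, but the deletion libraries spread over more than the gap, and the log2 difference of 1.08 (SE 0.242) had a limma adjusted p = 0.0628. Myc, another such gene, was at 8.86 and 9.21 RPKM, and Sp5 at 5.19 and 5.81 RPKM, both overlapping. Sostdc1, a secreted antagonist of Wnt and BMP signals, was at 3.51 to 4.44 RPKM across wild type, against 1.62, 4.08, 1.47 and 1.31 RPKM in Ezh2 deletion, with Ezh2 deletion 2 alone inside the wild type range (limma adjusted p = 0.143).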
